A study of Homo sapiens with 8 samples.

Results

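The SMAD proteins and the TGF-beta receptors were examined in CFPAC-1 cells, an established human pancreatic ductal adenocarcinoma line, by bulk RNA sequencing. The set was chosen by gene symbol and holds 10 of the 58870 genes in the deposited table: SMAD1, SMAD2, SMAD3, SMAD4, SMAD5, SMAD6, SMAD7, SMAD9, TGFBR1 and TGFBR2. One group of 4 libraries came from cells carrying an empty vector, and the other group of 4 came from cells carrying an ADRA2A transgene, which encodes the alpha-2A adrenergic receptor. Both groups were grown without treatment for 72 h, and RNA was isolated with TRIzol. The study's title names ADRA2A as a suppressor of a squamous-like form of pancreatic cancer. The labels used here do not give the promoter of the transgene, nor say whether the cells were a clone, nor whether the libraries of a group were separate cultures, so p-values measure the spread between these libraries, which may be technical.

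TGF-beta and activin ligands bind a type II receptor, which phosphorylates a type I receptor, and the type I receptor then phosphorylates receptor-regulated SMADs. TGFBR2 is the type II and TGFBR1 the type I receptor for TGF-beta. SMAD2 and SMAD3 are the substrates of the TGF-beta and activin receptors, and SMAD1, SMAD5 and SMAD9 are those of the BMP receptors. The phosphorylated SMADs join SMAD4, the common partner, and enter the nucleus, while SMAD6 and SMAD7 are inhibitory SMADs that the pathway itself induces. SMAD4, also known as DPC4 (deleted in pancreatic carcinoma), is a tumour suppressor that pancreatic cancers often lose.

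Library totals ran from 14427040 to 17528910 counts. ADRA2A had 0 counts in all 4 empty-vector libraries and 112, 142, 154 and 172 counts in the ADRA2A libraries, which checks the labels. Of 9 ductal epithelial marker genes, 9 had more than 3 counts in some library, with a summed level of 12100 to 12700 counts-per-million (CPM) in the empty-vector and 12000 to 13100 CPM in the ADRA2A libraries. The summed level of 6 fibroblast markers was 2.04 to 2.55 CPM against 1.18 to 1.66 CPM, and that of 4 endothelial markers 2.05 to 2.71 CPM against 2.64 to 3.35 CPM. Of 5 immune markers CD3E was at 0 throughout and PTPRC had at most 4 counts in a library, and the list's sum of 88.5 to 95.5 CPM against 108 to 119 CPM came mainly from CD68, a lysosomal protein gene. The part of these marker levels in the results was not tested, and in bulk RNA fewer cells of a type and less RNA per cell cannot be told apart.

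SMAD4 (ENSG00000141646.13; chromosome 18 of GRCh38, 51028528 to 51085045, plus strand, 12 exons in its canonical transcript) had 0 counts in every one of the 8 libraries. Together the libraries held 127337492 counts, so that a count of 0 allows at most 3 counts, or 0.0236 CPM; in single libraries 3 counts correspond to 0.171 to 0.208 CPM. This limit covers counting error only. Among 19869 annotated protein-coding genes in the table, 3509 (17.7%) were likewise without a count in any library. SMAD4 was removed by the filter for low counts, and no test between the groups was made.

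The genes beside SMAD4 show how far along the chromosome the absence of counts reached. Between ME2, the nearest expressed protein-coding gene on one side, and MEX3C, the nearest on the other, lie 220292 bases of GRCh38. The table holds 5 annotated genes of any type in this interval, and 0 of them had a count. They were SMAD4, ELAC1 (chromosome 18, 50967991 to 50988121), AC091551.1 (50968019 to 51058144, a protein-coding model that overlaps both ELAC1 and SMAD4), a small RNA and a processed pseudogene. Per library, only 19578 to 20093 of all 58870 genes of any type had a count. ELAC1 encodes an enzyme that trims the 3′ ends of transfer RNAs.

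Just outside the interval both genes were expressed. ME2 (50879080 to 50954257), which encodes a mitochondrial malic enzyme, had 366, 320, 376 and 396 counts in the empty-vector libraries and 286, 365, 385 and 381 in the ADRA2A libraries. MEX3C (51174550 to 51218333), which encodes an RNA-binding ubiquitin ligase, had 822, 695, 789 and 696 counts in the empty-vector libraries and 570, 624, 756 and 668 in the ADRA2A libraries. MEX3C was called lower (log2 change -0.17, standard error 0.05; adjusted p = 0.0111, edgeR), and its groups did not overlap in CPM. ME2 did not pass the test (log2 change -0.01, standard error 0.08; adjusted p = 0.923, edgeR). Of the 10 nearest protein-coding genes on each side of SMAD4, 15 had more than 3 counts in at least 1 library and 4 had 0 counts in all: ELAC1 and AC091551.1 within the interval, and MAPK4 and DCC outside it. SMAD4, ELAC1 and AC091551.1 were at 0 in both groups. DNA copy number was not analysed here.

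**Figure D1:**
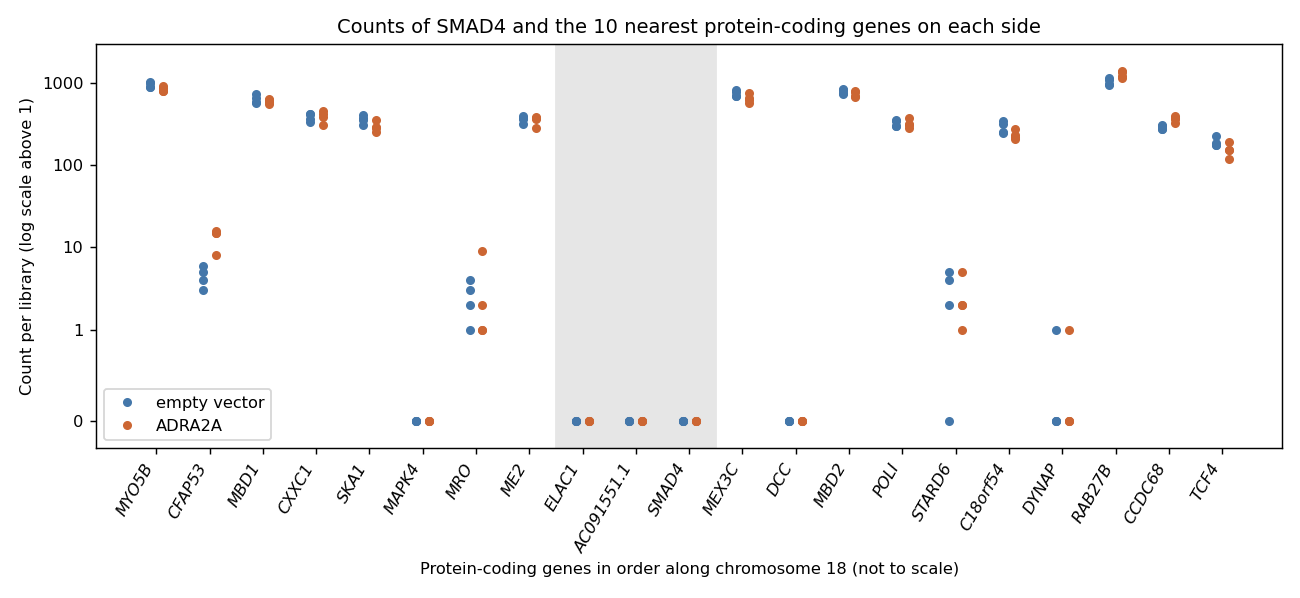
Counts in each of the 8 libraries (vertical axis, log scale above 1) for SMAD4 and the 10 nearest protein-coding genes on each side, in their order along chromosome 18 (horizontal axis, not to scale); blue points are empty-vector and orange points ADRA2A libraries, and the grey band spans the genes between ME2 and MEX3C. ELAC1, AC091551.1 and SMAD4 lie at 0 in every library, whereas ME2 and MEX3C lie between 286 and 822 counts.

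The receptor-regulated SMADs of both branches were transcribed although SMAD4 was not detected. To compare genes, counts were divided by the length of the canonical transcript and scaled to a common sum per library (TPM). On this per-length scale SMAD3 stood at 101 ± 2.06 in the empty-vector libraries (SD, n = 4) and SMAD2 at 3.53 ± 0.182. SMAD3 made up 66.8% ± 0.321 of the summed per-length level of the 5 receptor-regulated SMADs in the empty-vector libraries and 67.0% ± 0.967 in the ADRA2A libraries (SD, n = 4 each). SMAD5 stood at 28.0 ± 1.15 and SMAD1 at 18.7 ± 0.585 (SD, n = 4 each). The per-length ratio of SMAD3 to SMAD2 was 28.7 ± 0.95 in the empty-vector and 29.5 ± 1.09 in the ADRA2A libraries, and the 2 ranges overlapped. The canonical SMAD2 transcript is 34626 bases long and that of SMAD3 6464. With the union of all annotated exons as length, which includes the canonical transcript, the ratio was 19.5 and 20.05. No shorter SMAD2 transcript was tried, so these ratios, the SMAD3 share and the rank of SMAD2 depend on this length. Before division by length, SMAD3 had 286 and SMAD2 53.4 CPM in the empty-vector libraries.

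TGFBR2 was the most abundant of the 10 genes per length, at 140 ± 2.60 in the empty-vector libraries (SD, n = 4), and TGFBR1 was among the lowest, at 4.99 ± 0.774. From high to low the order in the empty-vector libraries was TGFBR2, SMAD3, SMAD6, SMAD5, SMAD1, SMAD7, TGFBR1 and SMAD2, followed by SMAD9 and SMAD4. SMAD6 stood at 37.8 ± 1.53 and SMAD7 at 8.79 ± 0.451. Neighbours in this order did not overlap in range from TGFBR2 down to SMAD2, though TGFBR1 (3.93 to 5.77) and SMAD2 (3.34 to 3.74) lay close. The order of SMAD5 and SMAD6 depended on the length used: with the union of exons SMAD5 was at 37.8 and SMAD6 at 29.4, and the ranges of SMAD1 and SMAD7, and of TGFBR1 and SMAD2, then overlapped.

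**Figure D2:**
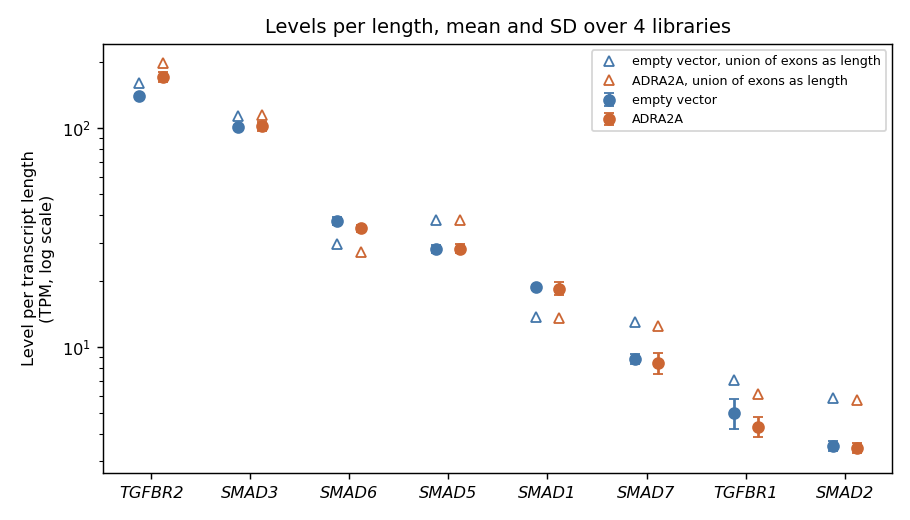
Level per transcript length (vertical axis, TPM, log scale) of the 8 tested genes, as mean and SD over 4 libraries with the canonical transcript as length (filled points) and as the mean with the union of exons as length (open triangles), blue for empty vector and orange for ADRA2A. TGFBR2 and SMAD3 stand above 100 and SMAD2 and TGFBR1 under 10 with either length, while SMAD5 and SMAD6 change places between the 2 lengths.

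SMAD9, the third BMP substrate, was close to the limit of detection. It had 3, 1, 4 and 6 counts in the empty-vector libraries and 1, 0, 0 and 0 in the ADRA2A libraries, and it did not pass the filter for testing. The sums of 14 and 1 counts give a ratio of 13.7 with a 95% interval of 2.08 to 578 (exact Clopper-Pearson, counting error only). The counts of the groups overlapped at 1. In an edgeR fit without the filter SMAD9 had an adjusted p of 0.0361.

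Of the 10 genes, 8 passed the filter and were tested between the groups with edgeR's quasi-likelihood test, with p-values adjusted by the Benjamini-Hochberg method over all 14785 genes tested. At an adjusted p under 0.05, 2 of the 8 were called, TGFBR2 higher and SMAD6 lower, against 42.7% of all genes tested. The median log2 fold change of the 8 was -0.03 and the median absolute log2 fold change was 0.05, where all genes tested had 0.00 and 0.18. The groups were fully separated in 1 of the 8, TGFBR2, and in 39.2% of all genes tested.

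TGFBR2 (ENSG00000163513.17; chromosome 3, 30606601 to 30694142, plus strand, 7 exons), the type II receptor gene, rose. It had 275, 281, 274 and 280 CPM in the empty-vector libraries and 346, 317, 341 and 348 CPM in the ADRA2A libraries. All 4 ADRA2A libraries lay above all 4 empty-vector libraries. The log2 change was 0.28 with standard error 0.04 (adjusted p = 2.04e-06, edgeR), a rise of 21.7% with a 95% interval of 15.6% to 28.1%, and it stayed between 0.27 and 0.31 over 15 alternative fits. This size exceeded that of 68.4% of the genes tested. Among the 20 nearest tested protein-coding genes, 10 on each side, 2 were higher and 7 lower, where 21.6% and 21.1% of all genes tested were, and their median was -0.13. With 5 on each side 2 were higher and 2 lower, and the median was -0.07.

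TGFBR1 (ENSG00000106799.13; chromosome 9, 99104038 to 99154192, plus strand, 9 exons), the type I receptor gene, did not pass the test. Its levels were 14, 11.3, 15.05 and 16.2 CPM in the empty-vector libraries and 12.9, 10.6, 12.2 and 13.0 CPM in the ADRA2A libraries. The groups overlapped at empty-vector replicate 2, which at 11.3 CPM lay below 3 of the 4 ADRA2A libraries. The log2 change was -0.22 with standard error 0.11 (adjusted p = 0.113, edgeR), with a 95% interval of -0.44 to 0.01. Without empty-vector replicate 2 it was -0.31 with an adjusted p of 0.0185, and over all alternatives the adjusted p lay between 0.0185 and 0.324. The coefficient of variation of TGFBR1 in the empty-vector libraries was 14.9%, against 6.63% from counting alone. The per-length ratio of TGFBR2 to TGFBR1 was 28.7 ± 4.90 in the empty-vector libraries, with a range of 24.9 to 35.8, and 39.9 ± 2.05 in the ADRA2A libraries, with a range of 38.3 to 42.7 (SD, n = 4 each). These ranges did not overlap, and the ratio was not tested.

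**Figure D3:**
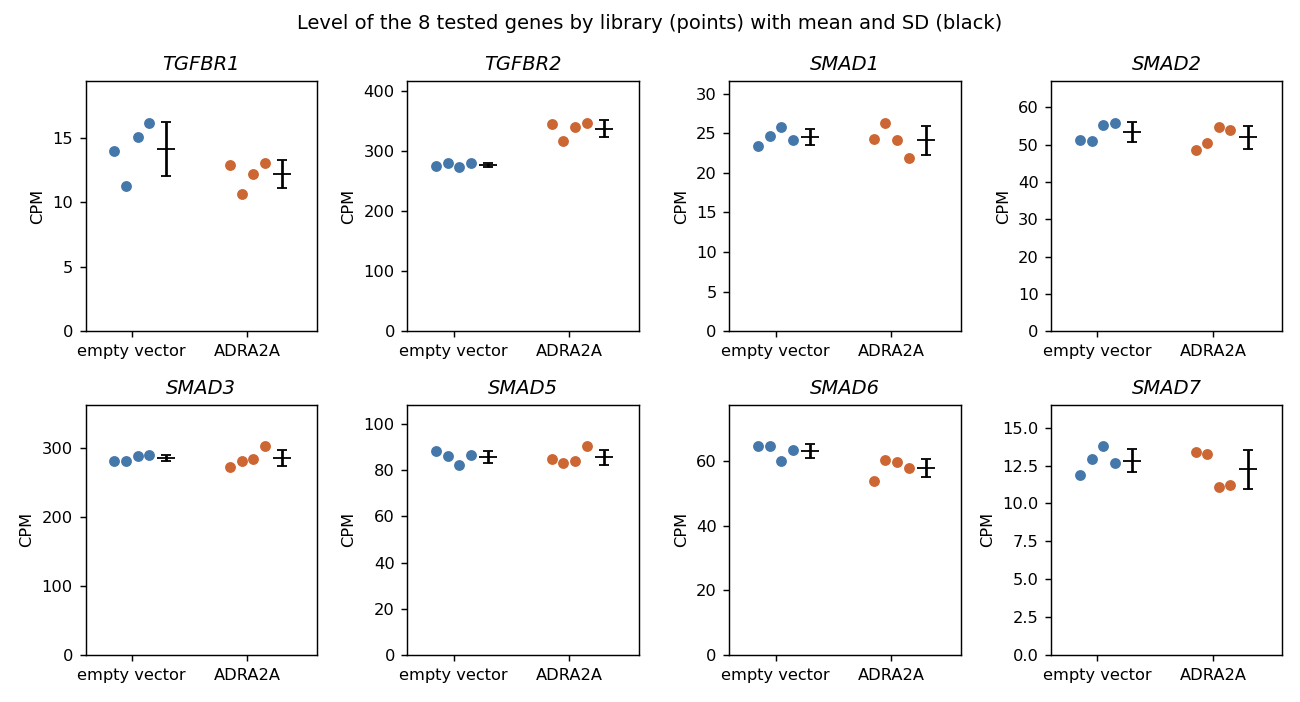
CPM (vertical axis, from 0) of the 8 tested genes in each empty-vector (blue) and ADRA2A (orange) library, with the mean and SD of 4 libraries in black. The TGFBR2 points separate, at 274 to 281 CPM against 317 to 348 CPM, and the points of the other 7 genes overlap between the groups.

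The substrates of the TGF-beta receptors did not pass the test. SMAD3 (ENSG00000166949.16; chromosome 15, 67063763 to 67195173, plus strand, 9 exons) had 282, 282, 290 and 290 CPM in the empty-vector libraries and 274, 282, 285 and 303 CPM in the ADRA2A libraries. The ADRA2A libraries lay on both sides of the empty-vector ones. With a log2 change of 0.00 with standard error 0.04 (adjusted p = 0.987, edgeR), its 95% interval ran from -0.07 to 0.08, or from -4.95% to 5.34%. SMAD2 (ENSG00000175387.16; chromosome 18, 47808957 to 47931146, minus strand, 11 exons) had 51.3, 51.0, 55.4 and 55.9 CPM against 48.6, 50.4, 54.8 and 54.1 CPM. The SMAD2 ranges overlapped for the most part. Its log2 change was -0.04 with standard error 0.05 (adjusted p = 0.597, edgeR), with a 95% interval of -9.83% to 5.20%.

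Among the BMP substrates, neither SMAD5 nor SMAD1 passed the test. SMAD5 (ENSG00000113658.18; chromosome 5, 136132845 to 136188747, plus strand, 8 exons) had 88.5, 86.1, 82.1 and 86.6 CPM in the empty-vector libraries and 85.1, 83.3, 84.0 and 90.3 CPM in the ADRA2A libraries. Its log2 change was 0.00 with standard error 0.04 (adjusted p = 0.970, edgeR), with a 95% interval of -6.21% to 6.27%. SMAD1 (ENSG00000170365.10; chromosome 4, 145481194 to 145559176, plus strand, 7 exons) had 23.4, 24.7, 25.8 and 24.2 CPM against 24.2, 26.3, 24.2 and 21.8 CPM. The highest and the lowest SMAD1 value were both in ADRA2A libraries. Its log2 change was -0.02 with standard error 0.07 (adjusted p = 0.816, edgeR), with a 95% interval of -11.1% to 8.83%. For SMAD1, SMAD3 and SMAD5 the sign of the fold change turned under some alternatives, in each case without passing the test.

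The inhibitory SMADs are described with the sequence before their start sites, because SMADs bind DNA at the letters CAGAC and at the palindrome GTCTAGAC, and both genes are known targets of the pathway. The 250 bases before the RefSeq start that coincides with the GENCODE canonical start are given 5′ to 3′ for SMAD6 (GRCh38, chr15:66701986-66702235, plus strand) and SMAD7 (GRCh38, chr18:48950966-48951215, minus strand), with matches to GTCTAGAC or CAGAC in capitals.
SMAD6: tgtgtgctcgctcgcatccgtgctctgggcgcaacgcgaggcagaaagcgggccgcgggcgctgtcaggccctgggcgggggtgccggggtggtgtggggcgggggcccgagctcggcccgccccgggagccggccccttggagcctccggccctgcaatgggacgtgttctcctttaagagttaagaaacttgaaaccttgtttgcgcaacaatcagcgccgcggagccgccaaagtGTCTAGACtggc
SMAD7: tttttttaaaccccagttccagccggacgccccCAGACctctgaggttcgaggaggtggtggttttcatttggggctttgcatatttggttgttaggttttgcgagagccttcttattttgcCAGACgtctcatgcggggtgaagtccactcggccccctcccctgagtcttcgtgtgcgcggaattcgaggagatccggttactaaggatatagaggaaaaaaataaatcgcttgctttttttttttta
The SMAD6 window held GTCTAGAC once, 12 bases before the start, and no CAGAC on either strand. Of 34943 RefSeq promoter windows of this length 64 (0.183%) held GTCTAGAC, which reads the same on both strands. The SMAD7 window held CAGAC at 217 and 128 bases before the start and no GTCTAGAC, and CAGAC on either strand was present in 38.0% of all windows. RefSeq gave 3 windows for SMAD7 and 1 for SMAD6. The other SMAD7 windows are not described here, so the absence of GTCTAGAC holds for the printed window only. The 2 motifs do not overlap in these windows. A match describes the letters only, and binding was not analysed here.

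SMAD6 (ENSG00000137834.15; chromosome 15, 66702236 to 66782849, plus strand, 4 exons), which mainly restrains BMP signalling, had 64.5, 64.5, 60.01 and 63.4 CPM in the empty-vector libraries and 54.0, 60.3, 59.6 and 57.8 CPM in the ADRA2A libraries. Empty-vector replicate 3, at 60.01 CPM, lay below ADRA2A replicate 2, at 60.3 CPM, and the groups overlapped there. The log2 change was -0.12 with standard error 0.05 (adjusted p = 0.0480, edgeR), a percent change of -8.14% with a 95% interval of -14.4% to -1.46%. The call was marginal: SMAD6 did not pass the threshold in 9 of the 15 alternative fits, among them DESeq2 (adjusted p = 0.0745) and the fit without ADRA2A replicate 1 (log2 fold change -0.09, adjusted p = 0.172), and the range over all alternatives was 0.0277 to 0.172.

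SMAD7 (ENSG00000101665.9; chromosome 18, 48919853 to 48950965, minus strand, 4 exons), which competes for the activated type I receptor, had 11.9, 13.0, 13.8 and 12.7 CPM in the empty-vector libraries and 13.4, 13.3, 11.1 and 11.2 CPM in the ADRA2A libraries. The ADRA2A values fell into a higher and a lower pair on both sides of most empty-vector values. With 177 to 237 counts per library, SMAD7 did not pass the test (log2 change -0.07, standard error 0.09; adjusted p = 0.580, edgeR), and the 95% interval ran from -16.9% to 9.19%. The per-length ratio of SMAD6 to SMAD7 was 4.31 ± 0.384 and 4.17 ± 0.534 (SD, n = 4 each), with overlapping ranges.

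SMAD2, SMAD4 and SMAD7 lie on one arm of chromosome 18, and the values of their neighbours are given beside them. Earlier results of these data had shown stretches of chromosomes that shift together, and the neighbours were examined with this known. The counts and medians of the neighbours are therefore not independent support. Of all genes tested 21.1% were called lower and 21.6% higher. Of the 20 nearest tested protein-coding genes, 10 were lower and 0 higher around SMAD2, at a median log2 fold change of -0.21. Around SMAD7 the counts were also 10 and 0, with a median of -0.17, and around SMAD4 they were 8 and 3, with a median of -0.10. SMAD2 itself was at -0.04 and SMAD7 at -0.07, and their difference from the neighbours was not tested. Among the 10 nearest genes, 5 on each side, 2 were lower and 0 higher both around SMAD2 (median -0.06) and around SMAD7 (median -0.05), so that SMAD7 then lay farther from 0 than the median of its neighbours. SMAD2 and SMAD7 share 17 of their 20 neighbours, and SMAD4 shares 7 of its 20 with SMAD2 and 9 with SMAD7. SMAD3 and SMAD6 on chromosome 15, each with a neighbour median of 0.06, share 18. The sign of these medians turned with 5 neighbours on each side, to -0.07 for SMAD3 and -0.08 for SMAD6.

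Other receptors of the family were mostly higher. From a list of 15 further receptors and co-receptors 11 were tested, of which 7 rose, 0 fell and 4 did not pass the test, and their median log2 fold change was 0.25. Called higher were 21.6% of all genes tested. TGFBR3, the co-receptor betaglycan that presents TGF-beta to the type II receptor, rose from 6.59 ± 0.580 to 19.2 ± 0.936 CPM (SD, n = 4 per group; log2 change 1.53, standard error 0.09; adjusted p = 7.08e-11, edgeR). ACVR1B, an activin type I receptor that acts on SMAD2 and SMAD3, rose from 35.5 ± 2.35 to 59.8 ± 4.13 CPM, a log2 change of 0.75 with standard error 0.06 (adjusted p = 4.55e-09, edgeR). BMPR1B, a BMP type I receptor, rose from 22.3 ± 0.525 to 34.3 ± 0.874 CPM, a log2 change of 0.62 with standard error 0.06 (adjusted p = 4.98e-08, edgeR). Each of these exceeded the fold change of TGFBR2, and none of their libraries overlapped between the groups. They were picked as the 3 smallest p-values of the list, which favours large and separated changes. Of the other receptors that rose, ENG (1.10) also exceeded TGFBR2, while BMPR2 (0.25), ACVR1 (0.25) and BMPR1A (0.18) did not.

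All 18 listed regulators of receptors and SMADs were tested, and 5 rose, 6 fell and 7 did not pass the test, at a median log2 fold change of -0.01. The share called was 61.1%, where 42.7% of all genes tested were called. BAMBI, a decoy receptor without a kinase domain, rose from 28.0 ± 1.68 to 71.0 ± 2.21 CPM (SD, n = 4 per group), a log2 change of 1.34 with standard error 0.05 (adjusted p = 1.63e-13, edgeR). PMEPA1, a TGF-beta-induced gene whose protein sequesters SMAD2 and SMAD3, fell from 257 ± 9.37 to 173 ± 1.06 CPM, a log2 change of -0.58 with standard error 0.04 (adjusted p = 9.21e-11, edgeR). FKBP1A, which encodes the protein FKBP12 that holds type I receptors inactive, fell from 371 ± 8.32 to 291 ± 7.12 CPM, a log2 change of -0.35 with standard error 0.03 (adjusted p = 4.56e-08, edgeR). The ubiquitin ligase genes SMURF1, at a log2 fold change of -0.02, and SMURF2, at -0.05, did not pass the test; these 2 were named after their values were seen.

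**Figure D4:**
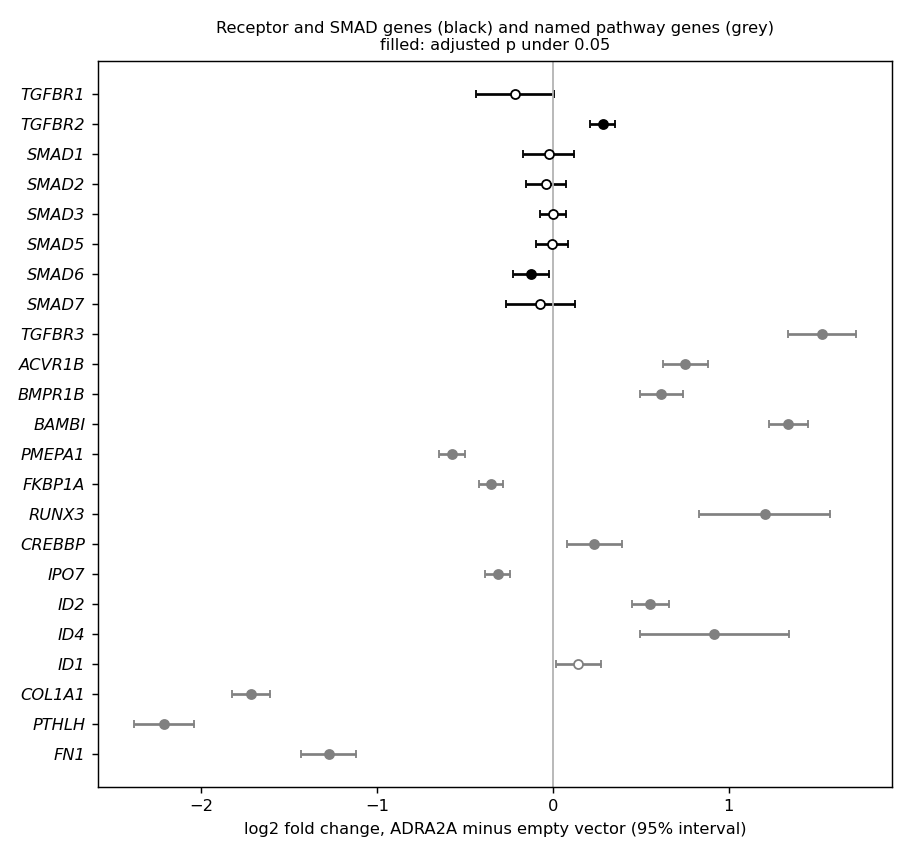
Log2 fold change, ADRA2A minus empty vector (horizontal axis), with its 95% interval, for the 8 tested SMAD and TGF-beta receptor genes (black) and the 3 genes of smallest p-value in each of 5 pathway lists (grey); filled points have an adjusted p under 0.05. The black intervals are short and lie near 0 for SMAD1, SMAD2, SMAD3 and SMAD5, while TGFBR2 stands at 0.28 and the grey points reach from -2.21 for PTHLH to 1.53 for TGFBR3.

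Of 14 nuclear partners of SMADs 12 were tested, and 2 rose, 1 fell and 9 did not pass the test, at a median log2 fold change of 0.015. These 3 of 12 are a smaller share than the 42.7% called among all genes tested. RUNX3, a RUNT-domain factor, rose from 4.65 ± 1.77 to 10.7 ± 0.595 CPM (log2 change 1.21, standard error 0.18; adjusted p = 1.70e-05, edgeR). Its empty-vector libraries were uneven, at 2.87, 3.39, 6.04 and 6.28 CPM, though all lay below the ADRA2A libraries. Their coefficient of variation was 38.0%, against 11.6% from counting alone. IPO7, an importin that carries SMADs into the nucleus, fell from 267 ± 5.62 to 215 ± 5.38 CPM (log2 change -0.31, standard error 0.03; adjusted p = 3.34e-07, edgeR). CREBBP, the acetyltransferase CBP, had 69.2 ± 5.4 and 81.7 ± 11.6 CPM with overlapping groups (log2 change 0.24, standard error 0.08; adjusted p = 0.0159, edgeR). The CREBBP call was lost with DESeq2 (adjusted p = 0.0879), without empty-vector replicate 2 (0.0628) and without ADRA2A replicate 4 (log2 fold change 0.14, adjusted p = 0.0738).

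Genes known as TGF-beta targets were mostly lower in the ADRA2A cells. From a list of 19 genes 17 were tested, of which 12 fell, 2 rose and 3 did not pass the test, and their median log2 fold change was -0.60. Called lower were 21.1% of all genes tested. PTHLH, which encodes parathyroid hormone-related protein, fell from 89.4 ± 10.1 to 19.3 ± 2.17 CPM (SD, n = 4 per group), a log2 change of -2.21 with standard error 0.08 (adjusted p = 5.97e-14, edgeR). The collagen gene COL1A1 and the fibronectin gene FN1 had the other smallest p-values of the list, with log2 fold changes of -1.72 and -1.27. Both were already known to be lower, and the list was chosen with earlier results of these data known. Its counts and median are therefore not independent support. The 2 that rose were JUNB (log2 fold change 0.64) and BHLHE40 (0.30), both transcription factor genes named here after their values were seen. Many of these genes also respond to other pathways. The sum of the 6 fibroblast markers was lower in the ADRA2A libraries as well, at 1.18 to 1.66 CPM against 2.04 to 2.55 CPM. COL1A1 alone fell from 78.4 ± 1.93 to 23.9 ± 1.22 CPM. The part of other pathways or of these markers in the falls was not tested.

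For BMP target genes 7 of 12 were tested, of which 2 rose, 0 fell and 5 did not pass the test, at a median log2 fold change of 0.15. The share called was 28.6%, below the 42.7% of all genes tested, of which 21.6% were called higher. The inhibitors of differentiation ID2 and ID4 were the 2 that rose. ID2 went from 47.4 ± 2.13 to 69.8 ± 2.92 CPM (log2 change 0.56, standard error 0.05; adjusted p = 2.11e-08, edgeR) and ID4 from 2.26 ± 0.502 to 4.30 ± 0.642 CPM (log2 change 0.92, standard error 0.20; adjusted p = 0.00102, edgeR). ID1 had 42.6 ± 1.83 and 47.1 ± 4.06 CPM and a log2 change of 0.15 with standard error 0.06 (adjusted p = 0.0597, edgeR), and it passed the threshold in 4 of 15 alternative fits, with adjusted p-values from 0.0134 to 0.214 over all of them. Without ADRA2A replicate 4 its log2 fold change was 0.19. From a list of 24 ligand genes 23 were analysed here and 11 were tested, of which 3 rose, 4 fell and 4 did not pass the test, a share called of 63.6% where that of all genes tested was 42.7%.

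**Figure D5:**
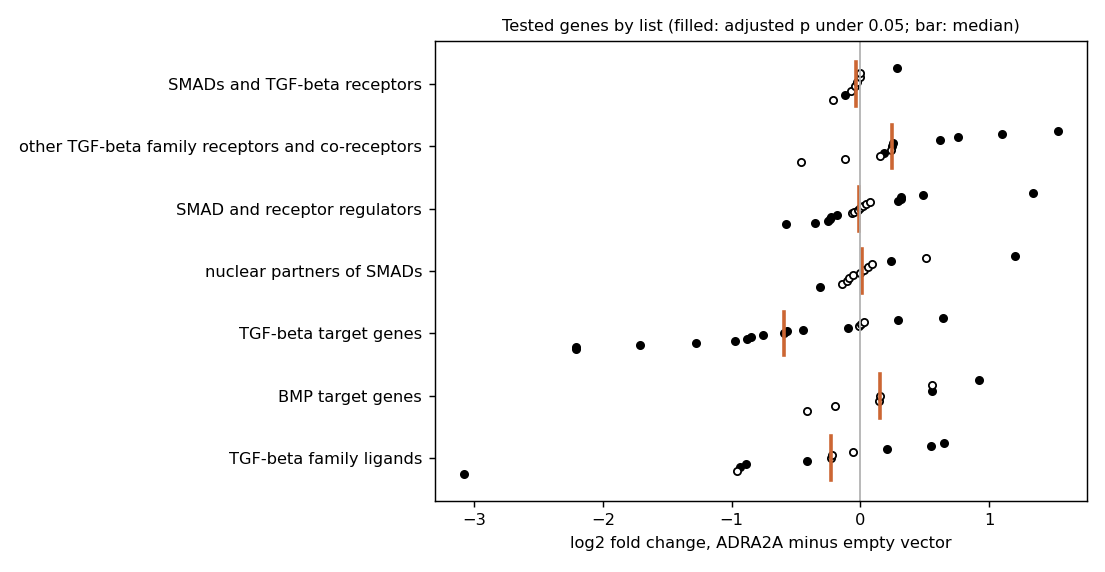
Log2 fold change, ADRA2A minus empty vector (horizontal axis), of each tested gene in the SMAD and TGF-beta receptor set and in 6 pathway lists (vertical axis); filled points have an adjusted p under 0.05 and the orange bar is the median of the list. The SMAD and receptor genes cluster near 0, with a median of -0.03, whereas the medians are -0.60 for TGF-beta targets and 0.25 for the other receptors. The lists were chosen with earlier results of these data known.

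Because TGFBR2 had the largest absolute log2 fold change of the set, the genes whose pattern was most like it were sought among 10159 others with a mean of at least 10 CPM. The measure was the mean absolute difference of centred log2 CPM over the 8 libraries. LEPROT (0.02), PDLIM5 (0.02) and EFNA1 (0.02) came closest, with log2 fold changes of 0.27, 0.28 and 0.25. The measure includes the difference between the groups, so similar fold changes follow from picking the closest genes. LEPROT had 89.7 to 95.4 CPM in the empty-vector and 106 to 114 CPM in the ADRA2A libraries.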

How the data were processed

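The authors deposited 1 table of RSEM expected counts per gene and sample, unscaled, in which 4.61% to 4.90% of entries per library had decimals. The tools cutadapt, STAR, RSEM and DESeq2 and the build hg38 are named, without versions, in the submitters' processing notes. The annotation release and the use of strand are not given in the sources used here, so reads of overlapping genes may be divided uncertainly. AC091551.1 overlaps ELAC1 and SMAD4, but all of these had 0 counts in every library, so no counts were divided among them. Columns were assigned by the name in each sample's title, and 0 columns were left over.

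Before testing, counts were rounded. Genes were filtered with filterByExpr, scaled with TMM factors and tested with edgeR 4.0.16 (glmQLFit and glmQLFTest, R 4.3.3; group as the only term, all 8 libraries, Benjamini-Hochberg adjustment, threshold 0.05). The standard error is the absolute log2 fold change divided by the square root of F, and 95% intervals use the test's degrees of freedom. CPM are TMM-scaled. Positions, exons and lengths came from GENCODE release 44, which matched 58472 of 58870 genes (99.3%), and promoters from RefSeq (GRCh38.p14), which held all 10 genes of the set. The scripts were tested on simulated data.

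Alternatives were DESeq2 1.42.0, RLE and upper quartile factors, limma 3.58.1 voom, no filter beyond 1 count, a mean of at least 50 counts, leaving out each library, and a block for the replicate number. Named genes were ADRA2A, the 10 genes of the set, the 3 smallest p-values in each of 5 lists (not the ligands), the genes around SMAD4 up to the nearest with over 3 counts, and the 3 most like the member with the largest fold change; others were named after their values were seen. The gene set, the lists and the comparison with chromosome neighbours were chosen with earlier results of these data known. COL1A1 and FN1 were already known to be lower. No set test was run.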

Additional observations from a re-analysis of the deposited data

Results flagged for a closer look

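Among the 58 groups of 4 libraries examined, 1 held a library far from the other 3 by Dixon's criterion, of which chance gives about 1 in 20. These groups cover the tested genes named by the rules above, not those named after their values were seen. ME2, the expressed gene next to the interval without counts around SMAD4, had 25.9 CPM in empty-vector replicate 4 and 21.4 to 21.8 CPM in the other empty-vector libraries.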

How the results depend on the processing

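The number of genes called was 6314 and stayed within 1.5 times of this under all alternatives. For the SMADs and TGF-beta receptors 2 were called, and 1, TGFBR2, was called with DESeq2, with limma voom and with the replicate block; when single libraries were left out the number lay between 1 and 2. With no filter TGFBR2 and SMAD9 were called and SMAD6 was not. TGFBR2 was past the threshold in 15 of 15 alternative fits. The replicate number did not pair the samples: deviations of same-numbered libraries correlated between -0.042 and 0.07, and 1 of 4 empty-vector libraries correlated best with its own number. With the replicate block, the adjusted p was 0.0539 for SMAD6 and 0.0452 for ID1. Over the tested SMAD, receptor and other genes named by the rules above, 0 called directions reversed. Of their gene-by-setting combinations 12 lost and 5 gained a call, against 418 that did neither.

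With the union of exons as length, per-length levels in the empty-vector libraries were 13.8 for SMAD1, 5.84 for SMAD2, 113.8 for SMAD3, 37.8 for SMAD5, 29.4 for SMAD6, 13.0 for SMAD7, 7.05 for TGFBR1 and 161.5 for TGFBR2, and 197.4 for TGFBR2 in the ADRA2A libraries. With 5 chromosome neighbours on each side, median log2 fold changes were 0.058 for SMAD1, -0.063 for SMAD2, -0.069 for SMAD3, -0.054 for SMAD4, 0.012 for SMAD5, -0.076 for SMAD6, -0.047 for SMAD7, -0.001 for SMAD9, 0.157 for TGFBR1 and -0.066 for TGFBR2. With 20 they were -0.145 for SMAD2, 0.037 for SMAD5, 0.04 for SMAD6 and -0.11 for SMAD9, and those that moved by less than the spread between libraries were -0.039 for SMAD1, 0.051 for SMAD3, -0.12 for SMAD4, -0.148 for SMAD7, -0.035 for TGFBR1 and -0.111 for TGFBR2. The cause of these shifts was not tested, beyond the changed length or number of genes. Depth limits SMAD9 and SMAD4 to their counts, and SMAD7 and TGFBR1 have the widest intervals of the tested set.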
